A study of Mus musculus with 4 samples.

Results

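The Myc, Max and Mxd network is a group of transcription factors that share a basic helix-loop-helix leucine zipper, and its 10 members here are Myc, Mycn, Mycl, Max, Mxd1, Mxd3, Mxd4, Mxi1, Mnt and Mga. They were chosen by gene symbol, through the gene identifiers of the deposited count tables, and all 10 were found among the 50600 genes of each table. The study holds 4 libraries of 1 group, biological replicates 1 to 4 of T cells from C57BL/6NJ mice, described as primary cells, with 1 donor entry shared by all 4 and with sex and age not recorded. The alignments behind the tables are named Th0, activated, sorted and 72 h, per the file headers, and the name of the culture protocol refers to CD4 T cell differentiation. Th0 is the usual name for CD4 T cells activated without cytokines that direct them to an effector fate. There is no second condition, no untreated group and nothing that says the replicates are separate animals, so every spread below is the spread between these 4 libraries and may be technical.

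Max is the hub of the network, since Myc, Mxd, Mnt and Mga proteins bind DNA as pairs with Max, mostly at the E-box CACGTG. Pairs of Max with Myc, Mycn or Mycl activate genes of growth, ribosome production and metabolism, while pairs with the Mxd proteins (Mxd1, Mxi1, Mxd3 and Mxd4) or Mnt recruit the SIN3 and histone deacetylase corepressor to the same sites. Mga also has a T-box and joins Max to a Polycomb complex called PRC1.6. In T cells, Myc is known for its rapid induction by the antigen receptor and for the growth and division that follow.

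The libraries held 34978213, 118937382, 42274502 and 95356041 counted read pairs in replicates 1 to 4. All 10 T cell markers, such as Cd3e, Trac and Cd4, were at or above 1 TPM in all 4 libraries, and their summed level was 8088 to 8515 TPM (a level scaled to exonic length and to a constant sum per library). The summed levels of the other marker lists were 17.5 to 29.5 TPM for Cd8a and Cd8b1 (with Cd8a at 0.267 ± 0.185 TPM), 3.66 to 6.54 for 6 B cell genes, 11.3 to 19.1 for 7 dendritic cell genes, 2.13 to 3.68 for 6 macrophage genes, 3.98 to 6.45 for 4 NK cell genes and 0 to 0.129 for 4 neutrophil genes. Most of the NK cell sum was Eomes, at 4.39 ± 0.876 TPM (SD, n = 4). The dendritic cell sum was mostly Batf3, at 12.1 ± 3.32 TPM (SD, n = 4), and Itgax, Clec9a and Siglech were at 0 counts throughout, so that their level in the deepest library was at most 0.0252 CPM (counts scaled to library size).

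The E-box was looked up in RefSeq promoter windows of the build GRCm38.p6, each running from 250 bases before to 50 bases after a gene start, to show where the sequence that the network binds stands near its own genes. A window was found for 9 of the 10 members, and the missing one is Myc. The windows of Max, Mnt and Mxd4 held 1 CACGTG each, so 3 of 9 members (33.3%) had one, against 12.0% of 8692 protein-coding genes that reached a TPM of 1 in every library and 8.09% of all 27025 genes with a window. The stretches are given 5′ to 3′ on the strand of the gene, with the motif, which reads the same on both strands, in capitals. Each stretch has 20 further bases on both sides of the motif. In that of Max (chr12:76962226-76962271, minus strand) the first base of the motif lies 3 bases before the start that RefSeq gives, so that the motif spans it. In that of Mnt (chr11:74830781-74830826, plus strand) the motif begins 123 bases before the start, and in that of Mxd4 (chr5:34187904-34187949, minus strand) 219 bases before it.
Max: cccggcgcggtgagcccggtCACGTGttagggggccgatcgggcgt
Mnt: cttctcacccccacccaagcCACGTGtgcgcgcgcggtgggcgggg
Mxd4: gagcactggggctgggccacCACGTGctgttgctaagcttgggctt
A match of these letters is a description of the sequence and no measure of binding. The small count of members with a motif was not tested against the wider shares. The windows of Mga, Mycl, Mxd1, Mycn and Mxd3, and all 3 windows of Mxi1, held none.

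Of the 10 members, 8 were at or above 1 TPM in all 4 libraries, and 7 of them at or above 10 TPM. Myc (ENSMUSG00000022346.15, chromosome 15, 61985391 to 61990374, plus strand, mm10), the activator of the network, had 382.8, 423.8, 439.4 and 454.2 TPM in replicates 1 to 4, and averaged 425.1 ± 30.8 TPM (SD, n = 4). Replicate 1 was the lowest library and replicate 4 the highest, and their ratio was 1.19. Myc stood above 97.1% of the 10868 protein-coding genes that reached a TPM of 1 in every library, at rank 320 of all 21764 protein-coding genes. Closeness of level to Myc was taken as the largest difference of log2(TPM + 0.1) in any of the 4 libraries. By it the 3 closest other protein-coding genes were Noc2l, a ribosome assembly factor, at 436.1 ± 23.8 TPM, Syngr2 at 421.9 ± 18.4 TPM and the chaperone partner Fkbp4 at 423.6 ± 19.1 TPM (SD, n = 4). Their largest differences were 0.08, 0.08 and 0.10. Whether they vary together with Myc was not tested.

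**Figure D1:**
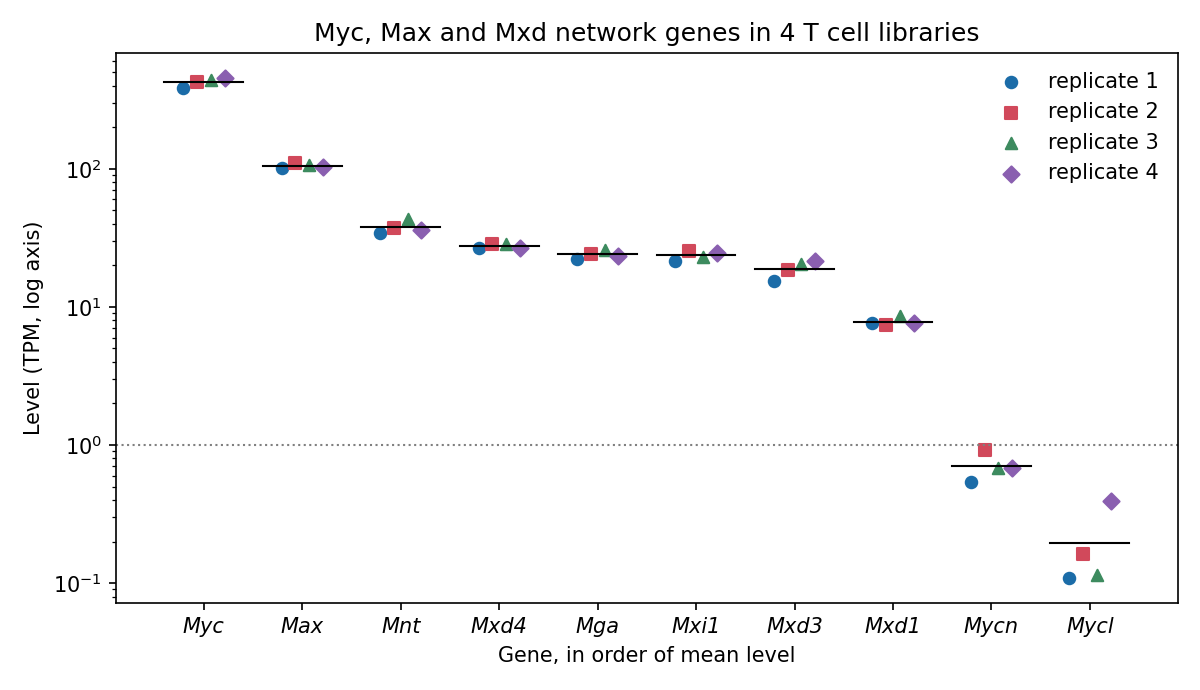
Level of each member in TPM on a log axis, with 1 point for each of the 4 libraries, a bar at the mean and a dotted line at a TPM of 1. Myc lies above Max and all other members in every library, and Mycn and Mycl lie below a TPM of 1 in all 4.

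The other members of the Myc family were below 1 TPM in all 4 libraries and rest on few counts. Mycl was near the limit of detection in replicates 1 and 3. Mycn (ENSMUSG00000037169.14, chromosome 12, 12936096 to 12941914, minus strand), best known from the embryo and nervous system, had 0.538, 0.917, 0.679 and 0.679 TPM in replicates 1 to 4, from 20, 110, 29 and 66 counts. Mycl (ENSMUSG00000028654.13, chromosome 4, 122995652 to 123002485, plus strand), known in dendritic cells, had 0.110, 0.163, 0.115 and 0.394 TPM, from 5, 24, 6 and 47 counts. Replicate 4 stood above the other 3 for Mycl, and its exact Poisson 95% interval, which covers counting error only, ran over 0.290 to 0.524 TPM, against 0.105 to 0.243 TPM in replicate 2. Replicate 4 also had the highest sum of the 7 dendritic cell markers, 19.1 TPM against 11.3, 13.2 and 15.6 TPM in replicates 1 to 3. That sum was carried by Batf3, at 16.3 TPM in replicate 4 against 8.60, 10.5 and 12.9 TPM in replicates 1 to 3. Of the 6 other markers, Flt3 was highest in replicate 4, Zbtb46 in replicate 2 and Xcr1 in replicate 1, and Itgax, Clec9a and Siglech were at 0, and the part of such cells in the level of Mycl was not tested. In these bulk libraries fewer cells of a type and less RNA per cell cannot be told apart. Myc made up 99.8% ± 0.0415 of the summed TPM of the Myc family (SD, n = 4). The log2 difference of Myc minus Mycn was 9.06 ± 0.24 and that of Myc minus Mycl 10.58 ± 0.51 (SD, n = 4), in the same direction in 4 of 4 libraries. With 1 in place of 0.1 added to the TPM, these differences were 7.97 and 8.48, so their size depends on that choice. With 4 libraries the exact two-sided sign-flip permutation test cannot give a p below 0.13, which is what 44 of the 45 pairs of members gave, these pairs included, with a Benjamini-Hochberg adjusted p of 0.13 over the 45 pairs.

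Max (ENSMUSG00000059436.13, chromosome 12, 76937269 to 76962201, minus strand), the common partner, had 101.9, 109.3, 106.1 and 102.8 TPM in replicates 1 to 4. These values lay within a ratio of 1.07, and none overlapped those of any other member. Max averaged 105.0 ± 3.36 TPM (SD, n = 4), above 82.2% of the protein-coding genes detected in every library. The log2 difference of Myc minus Max was 1.91, 1.95, 2.05 and 2.14 in replicates 1 to 4, a mean of 2.01 ± 0.10 (SD, n = 4; exact sign-flip p = 0.13), so that Myc mRNA per exonic length was 4.05 times that of Max. Per transcript length, as described further on, the difference was 1.32 ± 0.10 log2 and the ratio 2.50. The genes closest to Max in level were Arhgef6, a guanine nucleotide exchange factor, at 105.9 ± 5.11 TPM, the kinase Pak2 at 106.3 ± 3.77 TPM and Ppp1r15b, a phosphatase subunit, at 105.6 ± 1.97 TPM (SD, n = 4), each within 0.04 log2 in every library.

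Among the partners of Max that recruit corepressors, Mnt (ENSMUSG00000000282.12, chromosome 11, 74830920 to 74845725, plus strand), which is found in resting as well as dividing cells, had 34.0, 37.3, 43.0 and 36.0 TPM in replicates 1 to 4. Replicate 3 was the highest. Mxd4 (ENSMUSG00000037235.13, chromosome 5, 34173883 to 34187720, minus strand) had 26.9, 28.3, 28.7 and 26.6 TPM, and no library stood apart. Both are repressors of Myc target sites, and the lowest value of Mnt exceeded the highest of Mxd4.

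Mxi1 (ENSMUSG00000025025.13, chromosome 19, 53310506 to 53375810, plus strand), the Mxd protein named as a Max interactor, had 21.7, 25.2, 23.0 and 24.6 TPM in replicates 1 to 4. Mxd3 (ENSMUSG00000021485.13, chromosome 13, 55325168 to 55329758, minus strand), the Mxd protein most tied to dividing cells, had 15.3, 18.6, 20.5 and 21.5 TPM. Mxd1 (ENSMUSG00000001156.9, chromosome 6, 86647042 to 86669161, minus strand), first described as Mad, an antagonist of Myc in differentiating cells, had 7.68, 7.35, 8.55 and 7.60 TPM. Mxd1 was thus the lowest of the Mxd family in every library by TPM, while as CPM Mxd3 was lower, at 12.3 CPM against 17.2 CPM for Mxd1, and within Mxd3 replicate 1 was lowest and replicate 4 highest. Of the summed TPM of the 4 Mxd genes, Mxd4 made up 35.5% ± 1.80, Mxi1 30.3% ± 1.37, Mxd3 24.2% ± 2.34 and Mxd1 10.01% ± 0.763 (SD, n = 4). With transcript length these shares were 46.2% ± 1.83, 33.3% ± 1.38, 14.7% ± 1.61 and 5.86% ± 0.434 (SD, n = 4), in the same order. An exonic stretch of 104 bases of Mxd3, 5.00% of its length, lies opposite exons of Prelid1, which stood at 1604 to 1860 TPM. Counting used the strand, per the file headers, and the effect of that neighbour on Mxd3 was not tested.

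Mga (ENSMUSG00000033943.15, chromosome 2, 119897228 to 119969581, plus strand), the largest member by gene length, had 22.3, 24.1, 26.0 and 23.5 TPM in replicates 1 to 4. This range overlapped that of Mxi1, and the log2 difference of Mga minus Mxi1 was 0.04, -0.07, 0.18 and -0.06 (mean 0.02 ± 0.12, SD, n = 4; exact sign-flip p = 0.875), positive in 2 libraries and negative in 2. In the order of mean TPM, which ran Myc, Max, Mnt, Mxd4, Mga, Mxi1, Mxd3, Mxd1, Mycn and Mycl, this was the sole pair of 9 neighbouring pairs whose ranges overlapped. The other 8 pairs had non-overlapping ranges and 1 direction in 4 of 4 libraries, the closest of them being Mxd4 minus Mga at 0.21 ± 0.06 log2 and Mxi1 minus Mxd3 at 0.32 ± 0.17 log2 (SD, n = 4; exact sign-flip p = 0.13 each). In TPM over protein-coding genes alone, 7 pairs lay apart, since the ranges of Mxd4 and Mga then overlapped, with a lowest Mxd4 of 28.07 TPM and a highest Mga of 28.12 TPM.

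The order in the middle of the network depended on the length used. The exonic length of the tables joins all exons of a gene, and for Mxd4 it is 8483 bases while its protein-coding transcripts in the basic GENCODE set average 2516 bases. With that transcript length, an alternative chosen after seeing the data, Mxd4 averaged 60.3 TPM, Mxi1 43.5, Mnt 24.5, Mxd3 19.2 and Mga 18.03. Mnt minus Mxd4 was then -1.30 log2 in place of 0.44, and Mga minus Mxi1 was -1.27 in place of 0.02. The ranges of Mxd3 and Mga then overlapped, and as CPM those of Max and Mga did. Myc and Max kept the first and second place, at 397.2 and 158.8 TPM, and Mxd1, Mycn and Mycl kept the last 3, at 7.65, 0.577 and 0.150 TPM.

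**Figure D2:**
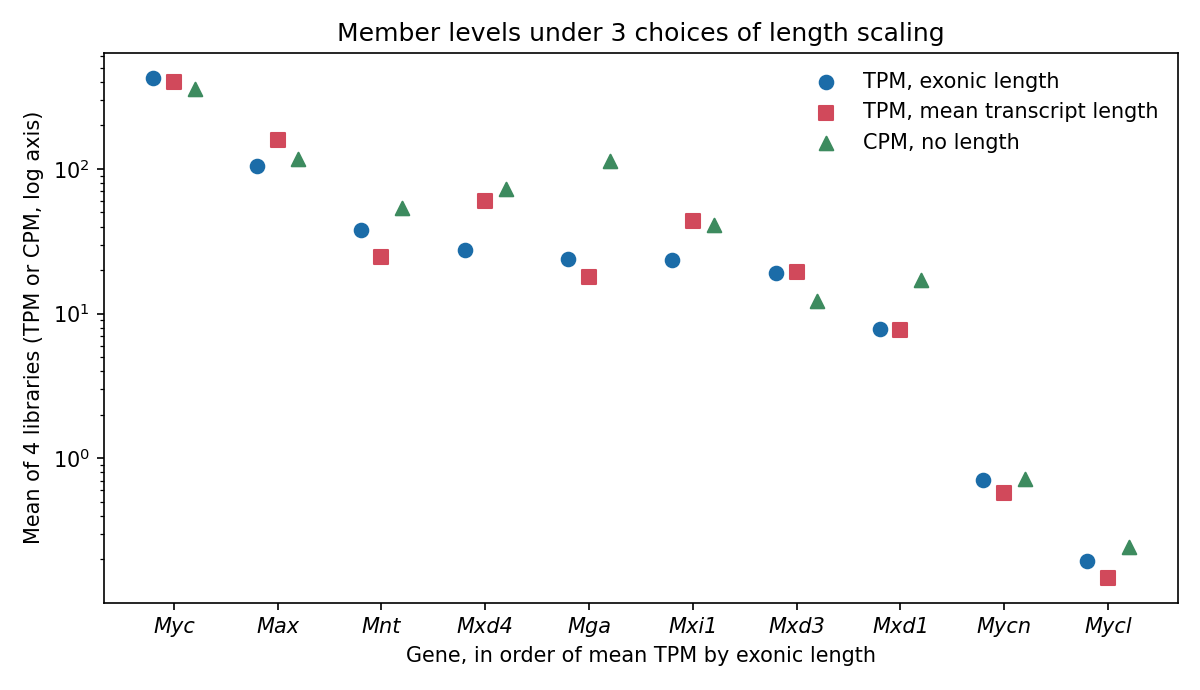
Mean of 4 libraries for each member on a log axis, as TPM by exonic length (circles), as TPM by mean transcript length (squares) and as CPM with no length (triangles). Myc is highest and Mycn and Mycl lowest in all 3, while Mnt, Mxd4, Mga, Mxi1, Mxd3 and Mxd1 change places.

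Summed by role, the Myc family held 62.5%, 62.9%, 63.3% and 65.2% of the TPM of the 10 members in replicates 1 to 4, Max 16.6%, 16.2%, 15.2% and 14.7%, the Mxd family 11.7%, 11.8%, 11.6% and 11.5%, Mnt 5.55%, 5.52%, 6.18% and 5.16%, and Mga 3.63%, 3.57%, 3.73% and 3.37%. The shares did not overlap between any 2 roles, here and with transcript length. As CPM the order was another, with the Mxd family at 143.6 CPM above Max at 117.6 and Mga at 114.3 above Mnt at 54.1 CPM. The Myc family summed to 426.0 ± 30.9 TPM and the Mxd family with Mnt to 115.6 ± 7.50 TPM, a log2 difference of 1.88 ± 0.06 (SD, n = 4; exact sign-flip p = 0.13, Benjamini-Hochberg adjusted p = 0.13 over 3 sums), in the same direction in 4 of 4 libraries. With Mga added to the repressors, which then summed to 139.5 ± 9.00 TPM, the difference was 1.61 ± 0.06 (p = 0.13, exact). These 2 differences were 0.86 and 0.21 with CPM and 1.36 and 1.20 with transcript length, so the direction held and the size moved by over 1.5 times with CPM.

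Max, at 105.0 ± 3.36 TPM, lay below the sum of its 9 partners, at 565.5 ± 38.3 TPM (SD, n = 4). The log2 difference of Max minus all 9 partners was -2.33, -2.37, -2.47 and -2.53 in replicates 1 to 4 (exact sign-flip p = 0.13), and -1.84 with transcript length. Levels of mRNA do not give levels of protein, and no protein was measured.

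**Figure D3:**
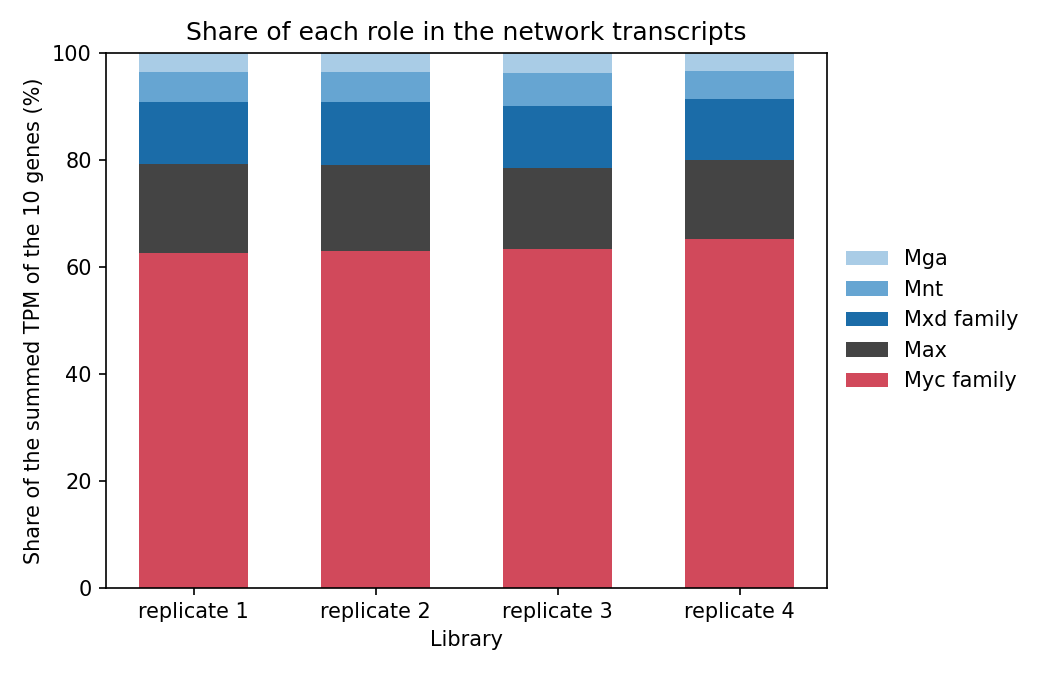
Share of the summed TPM of the 10 members held by each role, as stacked bars from 0 to 100% for each of the 4 libraries. The Myc family holds 62.5% to 65.2% in every library, and the order of the 5 roles is the same in all 4.

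Variation of the members between libraries was set against that of all genes. Of 14269 genes tested with the goodness of fit of edgeR under the trended dispersion, 66 (0.463%) varied beyond the trend at a Benjamini-Hochberg adjusted p below 0.05, and 0 of the 9 members tested were among them, as such a low share gives for 9 genes (adjusted p = 1.00 for each, unadjusted p from 0.281 for Mnt to 0.930 for Max). The count of members with an unadjusted p below 0.05 was also 0 of 9, where 5.69% of all genes had one, and the variance test of limma called 0 of 9, where it called 1.10% of all genes, and gave 0 of 9 an unadjusted p below 0.05, where 9.53% of all genes had one. Counts of 0 among 9 genes lie near these shares and say nothing particular of the members. Mycl did not pass the filter on low counts. With no such filter it was tested, and edgeR gave an adjusted p of 1.00 and an unadjusted p of 0.509. It also passed the filter without replicate 1 and without replicate 3, with an unadjusted p of 0.0805 and 0.126 (edgeR adjusted p = 1.00 each).

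On the scale of log2 CPM with TMM scaling (a correction for library composition), the SD over the 4 libraries was 0.03 for Max, 0.04 for Mxd4, 0.06 for Mga, 0.07 for Myc, 0.08 for Mxi1, 0.09 for Mxd1, 0.11 for Mnt, 0.18 for Mxd3 and 0.27 for Mycn. The median over the 9 was 0.08, against 0.12 over all genes tested. Max had a smaller SD than all but 4.40% of the genes tested, while Mycn lay above 77.4% of them. For Mxd3 the centred values were -0.24, -0.04, 0.09 and 0.18 in replicates 1 to 4, so that the highest library was 1.34 times the lowest. For Myc they were -0.08, -0.02, 0.02 and 0.09, and the ratio was 1.13. A GC trend per library (rho) rose in the same order, from -0.26 (replicate 1) through 0.01 (replicate 2) and 0.08 (replicate 3) to 0.26 (replicate 4). Mxd3 has 59.2% GC and Myc 56.0%. After correction for GC and length, the unadjusted edgeR p was 0.580 for Mxd3 and 0.905 for Myc, against 0.355 and 0.722 before. It also rose for Mga, Mnt and Mycn, and fell for Mxd4, Mxd1, Max and Mxi1. The part of GC in these orders was not tested.

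Replicates 1 and 3 had the fewest counts. Of the 9 members tested, Mxd4 and Mxd1 were higher in both of them than in both others, where 15.5% of all genes tested were, and Mycn and Mxi1 were lower in both, where 16.2% were. Both counts, 2 of 9, were close to what those shares give, and the part of depth in these values was not tested.

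**Figure D4:**
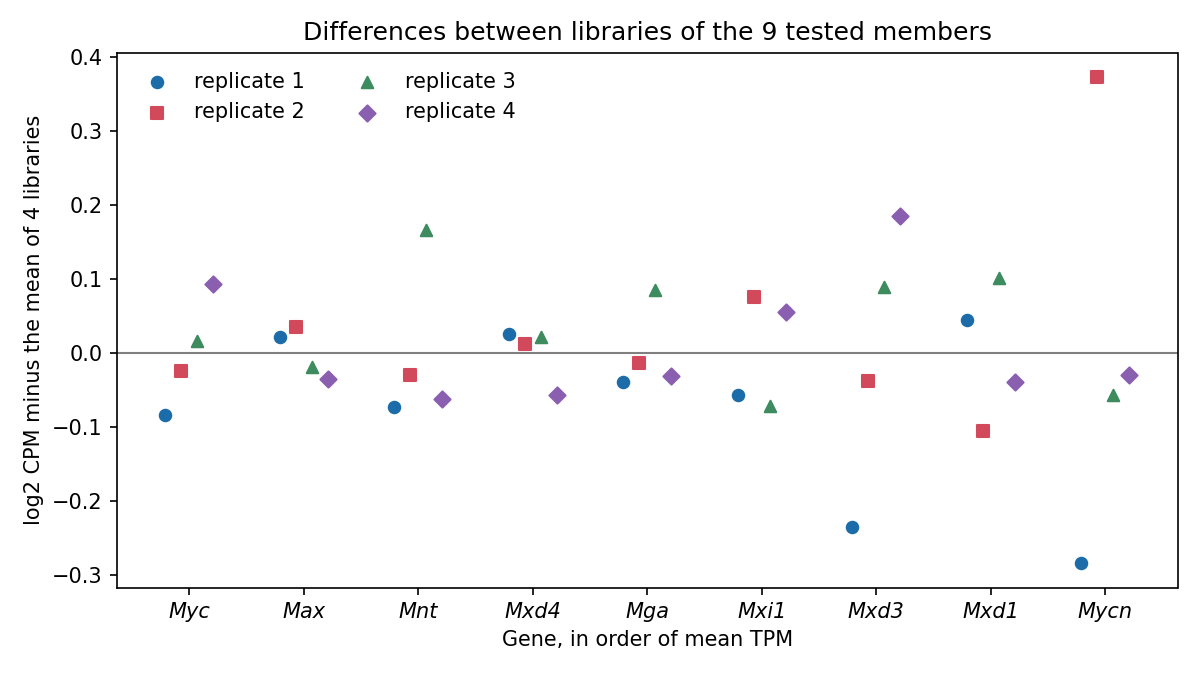
Differences of log2 CPM with TMM scaling from the mean of the 4 libraries, with 1 point per library for each of the 9 members tested. The points of Max and Mxd4 lie closest to 0, and those of Mycn and Mxd3 spread most.

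The genes around the network were next described, from 7 lists of 101 genes in all, of which 95 were at or above 1 TPM in all 4 libraries, as were 49.9% of all protein-coding genes. The lists were chosen with earlier results of these data known, so such shares describe them and are no test. None of the 97 list genes tested was called as varying between libraries (edgeR adjusted p below 0.05, background 0.463%), 3 of them had an unadjusted p below 0.05, where 5.69% of all genes had one, and limma called 0, where it called 1.10% of all genes. Bmyc, a rodent gene akin to the amino-terminal part of Myc and lacking its DNA-binding region, stood at 338.8, 342.9, 368.5 and 418.6 TPM in replicates 1 to 4, close below the values of Myc. It was lower than Myc in 4 of 4 libraries, with a log2 difference of Bmyc minus Myc of -0.21 ± 0.08 (SD, n = 4; exact sign-flip p = 0.13), though the 2 ranges overlapped. Bmyc is short, with 983 exonic bases, and as CPM it stood at 112.3 ± 10.6, against 359.2 ± 19.8 for Myc (SD, n = 4). No stretch of 50 bases was shared between transcripts of Bmyc and those of any other gene, Myc included.

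Mlx, the hub of the related branch that senses glucose, stood at 97.4 ± 2.12 TPM (SD, n = 4), below Max in 4 of 4 libraries by 0.11 ± 0.03 log2 with ranges that did not overlap. The size of that gap depends on the length, which is 1999 exonic bases for Mlx and 3598 for Max. As CPM, Mlx stood at 60.6 ± 1.69, against 117.6 ± 2.46 for Max (SD, n = 4). Outside the members, the listed partners of Mlx were unequal. Mlxip, also called MondoA, stood at 39.5 ± 3.39 TPM, while Mlxipl, also called ChREBP and known from liver, stood at 0.416 ± 0.161 TPM. Mlxipl was called as varying under a common dispersion alone (edgeR adjusted p = 0.0420). Mycs, listed as a near copy of Myc, had 0 counts throughout.

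All 18 genes of the SIN3 and histone deacetylase corepressor were above 1 TPM in all 4 libraries, and their median was 56.1 TPM. The highest were the histone-binding subunits Rbbp7 at 449.3 ± 13.7 TPM and Rbbp4 at 144.5 ± 5.98 TPM, the deacetylase Hdac1 at 169.9 ± 3.01 TPM and Brms1 at 122.0 ± 3.78 TPM (SD, n = 4). All 11 partners of Mga in PRC1.6 did so as well, with a median of 43.1 TPM, led by the E2F partner Tfdp1 at 281.3 ± 12.6 TPM, Wdr5 at 106.6 ± 5.14, the chromodomain protein Cbx1 at 80.7 ± 2.33 and L3mbtl2 at 64.0 ± 3.96 TPM (SD, n = 4). Of these 11, 9 lay above Mga in 4 of 4 libraries, Cbx3 in 3 of 4, and Rybp, an alternative to Yaf2 in the complex, below it in all 4 at 5.30 ± 0.794 TPM against 24.0 ± 1.55 TPM for Mga (SD, n = 4). The direction turned without the length, which is 15340 exonic bases for Mga. As CPM, 1 of the 11 lay above Mga and 8 below it in 4 of 4 libraries, while with transcript length 10 lay above and 1 below.

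Among 15 cofactors of Myc, all were above 10 TPM in all 4 libraries, and their median was 85.9 TPM. The ATPases Ruvbl2 and Ruvbl1 stood at 227.2 ± 15.1 and 132.4 ± 11.1 TPM, Hcfc1 at 221.5 ± 20.1 and the kinase Cdk9 at 103.05 ± 2.24 TPM (SD, n = 4). All 13 genes that act on the turnover of Myc protein were above a TPM of 1 in every library, with a median of 51.4 TPM. They were led by the ligase Stub1 at 191.2 ± 8.12 TPM, the kinase Aurka, which binds Myc and Mycn, at 107.9 ± 3.26, the ligase Huwe1 at 92.4 ± 6.93 and Fbxl14 at 87.9 ± 4.28 TPM (SD, n = 4).

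**Figure D5:**
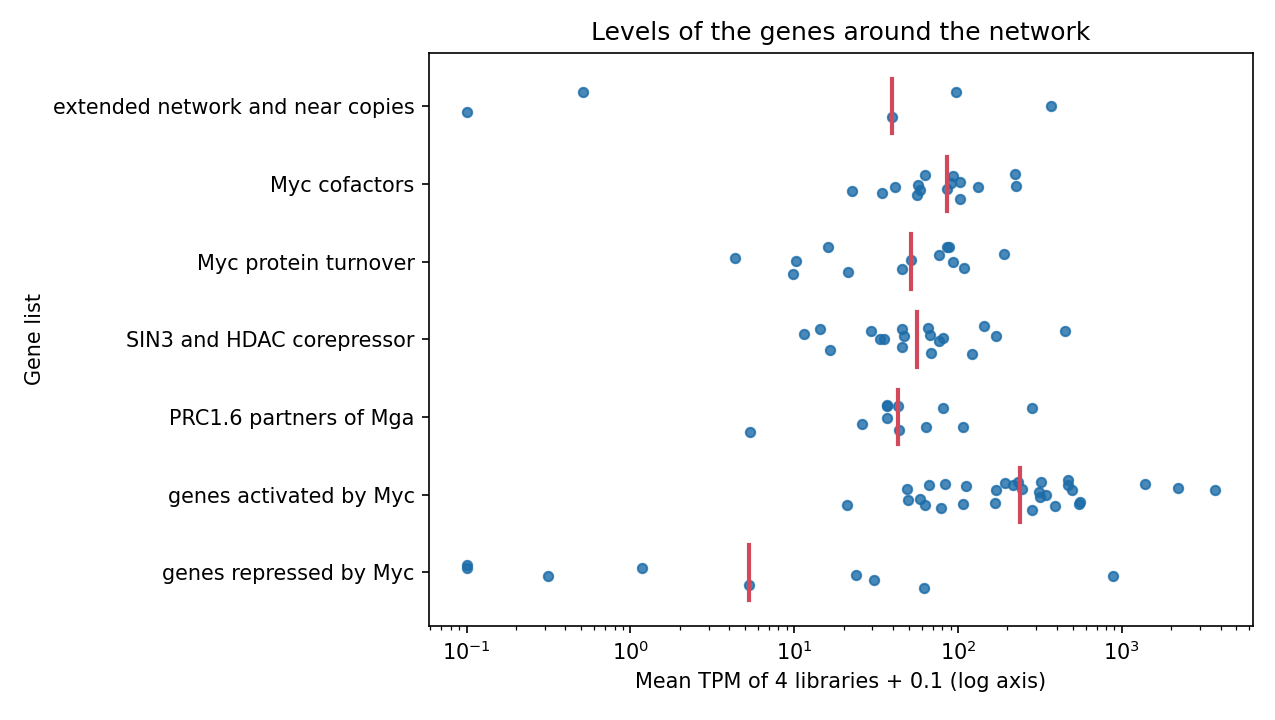
Mean TPM of 4 libraries plus 0.1, on a log axis, for each gene of the 7 lists around the network, with a bar at the median of each list. Genes activated by Myc have the highest median, 239.0 TPM, and genes repressed by Myc the lowest, 5.18 TPM. Both medians lie above the 1.43 TPM of all protein-coding genes.

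All 30 genes of the list of textbook activated targets reached a TPM of 10 in every library, against 37.8% of all protein-coding genes, and their median was 239.0 TPM, against 1.43 TPM over all protein-coding genes. The highest were Ldha, lactate dehydrogenase, at 3706 ± 283 TPM, Odc1, the first enzyme of polyamine synthesis, at 2200 ± 165, the nucleolar protein Npm1 at 1383 ± 84.6 and the helicase Eif4a1 at 552.3 ± 22.0 TPM (SD, n = 4). Stretches of 50 bases that also occur in transcripts of other genes made up 9.03% of those of Ldha, 24.3% of Odc1, 24.3% of Npm1 and 28.4% of Eif4a1, and 6.97% of those of Rbbp7 among the corepressor genes, so these levels are uncertain. For the 10 members that share was at most 0.411%, in Mxd4. Since the libraries hold no cells without Myc, these levels do not measure any response to it. The list was chosen with earlier results of these data known. Of the 21764 protein-coding genes set beside it, 10224 lay below a TPM of 1 in every library. The share and median of the list are thus a description and no test.

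Of the 9 genes listed as repressed by Myc, 5 (55.6%) reached a TPM of 1 in every library, as did 49.9% of all protein-coding genes. The median of the 9 was 5.18 TPM, against 1.43 TPM over all protein-coding genes. Cdkn1a, the inhibitor of cyclin-dependent kinases also called p21, stood at 885.1 ± 41.0 TPM, Ndrg2 at 62.1 ± 3.43, Cdkn1b, also called p27, at 30.5 ± 3.06 and Ndrg1 at 23.6 ± 2.90 TPM (SD, n = 4). Cdkn2b, also called p15, stood at 0.214 ± 0.182 TPM, and Gas1 and Cebpa had 0 counts in all 4 libraries. Cdkn1a was thus higher than Myc and far from the rest of its list, and it is a p53 target as well.

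In the same promoter windows, 5 of 23 activated targets with a window (21.7%) held a CACGTG, none of 7 repressed ones did, and 12.0% of protein-coding genes detected in every library did. A count of 0 among 7 genes lies near that share, and none of these small counts was tested. The 5 activated targets with a motif were Cdk4, Ldha, Eif4e, Eif4a1 and Apex1, named after their sequences were seen. The window of Cdk4, the kinase that drives the start of the cell cycle (chr10:127063285-127063584, plus strand, GRCm38.p6), held the most, 4, and is shown whole for that reason, with the motifs in capitals. Cdk4 mRNA stood at 380.4, 401.9, 372.6 and 409.7 TPM in replicates 1 to 4. That of Ldha held 2, and the stretch around the motif nearer the start (chr7:46845736-46845781, plus strand), with the motif beginning 48 bases before it, is shown because Ldha was the highest of the list.
Cdk4: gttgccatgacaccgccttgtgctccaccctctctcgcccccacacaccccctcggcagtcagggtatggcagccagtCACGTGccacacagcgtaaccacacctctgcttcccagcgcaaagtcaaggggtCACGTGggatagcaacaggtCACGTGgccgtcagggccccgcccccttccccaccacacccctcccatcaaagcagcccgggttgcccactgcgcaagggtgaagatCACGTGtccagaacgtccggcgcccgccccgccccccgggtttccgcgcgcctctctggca
Ldha: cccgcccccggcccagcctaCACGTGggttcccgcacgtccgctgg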

How the data were processed

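Each library has 1 table of raw counts of read pairs per gene, deposited by the authors. Per the file headers, they were made with featureCounts 1.4.6-p4 on exons of GENCODE M13 (mm10), reverse-stranded, with both ends mapped and without the options for multiply mapped or multiply assigned reads. The labels name the assay as sequencing of total RNA but link a library protocol named for polyadenylated RNA.

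Symbols came from GENCODE M21 by identifier, which matched 50376 of 50600 genes (99.6%). TPM was computed from the counts and the exonic length of the tables. Pairs of members were compared within a library on the scale of log2(TPM + 0.1), with an exact two-sided sign-flip test over 4 libraries. The added 0.1 makes the log2 differences of low genes smaller than they are without it. Variation between libraries was tested with edgeR 4.0.16 in R 4.3.3 (filterByExpr, TMM, intercept only, trended dispersion, goodness of fit) over all genes, after a check on simulated data. No pair of libraries agreed within sampling noise (chi-square per degree of freedom 26.7 to 76.1), so all 4 were counted.

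The members and gene lists were chosen with earlier results of these data known. Named list genes are the 4 highest of each list, any called gene and any below a TPM of 1 in every library; Rybp, Cbx3, Yaf2, Cdk4, Eif4e and Apex1 were named after their values or sequences were seen. Alternatives were CPM, a pseudocount of 1, protein-coding TPM, transcript length, DESeq2 1.42.0 size factors, no filter, a common dispersion, limma 3.58.1, a correction for GC content and length, other detection thresholds and leaving out each replicate. GC content came from GENCODE M21 transcripts.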

Additional observations from a re-analysis of the deposited data

Results flagged for a closer look

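The gap between the most distant library and its nearest neighbour was set against the range of the 4 libraries (Dixon's criterion). Of 71 values looked at, 2 had a library that stood apart by it, and chance alone gives 3.55 at 1 in 20. The log2 difference of Myc minus Mycn was 8.70 in replicate 2, against 9.14 to 9.23 in the others. It rests on 110 counts of Mycn in that library and 20 to 66 in the others. The summed TPM of the Mxd family was 71.5 in replicate 1, against 79.5 to 80.7 in the others. The 71 values did not take in all 45 pairs of members. Outside them, other log2 differences stood apart by the same criterion. Mnt minus Mga was 0.73 in replicate 3, against 0.61 to 0.63 in the others. Mxi1 minus Mycl was 5.64 in replicate 4, against 6.59 to 6.75 in the others.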

How the results depend on the processing

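No paired analysis was possible because the labels give a single group. Of 45 pairs of members, 44 had 1 direction in every library in the main analysis, and also with CPM, with a pseudocount of 1, with transcript length and without each replicate in turn. The mixed pair and the directions could differ. In the main analysis the mixed pair was Mga and Mxi1. With CPM it was Max and Mga, at 117.0 and 122.2 CPM in replicate 3. Among neighbouring pairs, with CPM, Mnt minus Mxd4 was -0.44, Mxd4 minus Mga -0.65 and Mxd3 minus Mxd1 -0.49 log2. With transcript length Mnt minus Mxd4 was -1.30 and Mga minus Mxi1 -1.27. Other pairs turned too, such as Mnt and Mga with CPM, at 54.1 and 114.3 CPM. With transcript length Mnt and Mxi1 did, at 24.5 and 43.5 TPM. Leaving out 1 replicate at a time, Mga minus Mxi1 ranged over -0.031 to 0.051, with the lowest value without replicate 3. Of 9 neighbouring pairs, 8 lay apart, and 7 in TPM over protein-coding genes. The 3 summed contrasts kept their direction under all settings run. The number of members called as varying was 0 under every setting. Over all genes 66 were called, with 955 under a common dispersion, 157 with limma, and 41 (without replicate 1) to 68 (without replicate 3) with 1 replicate left out. Of the list genes, 1 was called under a common dispersion and 0 otherwise. At a TPM of 10 in place of 1, 89 list genes and 7 members were detected, in place of 95 and 8. Depth limits Mycl and Mycn, which rest on 82 and 225 counts over the 4 libraries.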
